A study of Mus musculus with 12 samples.

Results

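Transcript levels of 8 genes were followed in mouse liver: the 3 peroxisome proliferator-activated receptors Ppara, Ppard and Pparg, the 3 retinoid X receptors Rxra, Rxrb and Rxrg, and the 2 PGC-1 coactivators Ppargc1a and Ppargc1b. They were taken by symbol from 35275 genes listed by Ensembl identifier, and each of the 8 was among the 12466 genes tested, which averaged 0.5 FPKM or more over the libraries. FPKM is the number of fragments mapped to a gene, scaled by the length of the gene and by the depth of the library. The libraries came from whole livers of 12 mice, 3 in each of 4 groups. These were wild-type (WT) mice on chow, Pctp-/- mice on chow, WT mice on a diet lacking methionine and choline (MCD) and Pctp-/- mice on that diet. Pctp-/- mice lack phosphatidylcholine transfer protein (PC-TP) in the whole body, so the loss was not limited to hepatocytes. The reporting summary of the study gives the sex of its mice as male. Ages and fasting times stated in the methods of the study are not tied to the mice sequenced here, and their time on each diet was not given in the sources used here.

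PPARs are nuclear receptors that bind fatty acids and related lipids and act on DNA as heterodimers with an RXR. PPARα directs fatty acid oxidation and ketogenesis in the fasted liver, PPARδ directs fatty acid use in many tissues, and PPARγ directs lipid storage in adipocytes and, at low levels, in hepatocytes. RXRs also pair with the receptors for oxysterols, bile acids, retinoic acid, thyroid hormone and vitamin D, and PGC-1α and PGC-1β dock on PPARs and other receptors to drive mitochondrial and, in liver, gluconeogenic and lipogenic genes. The study is concerned with PC-TP and PPARδ, and the comparisons here ask whether the transcripts of the receptors and their coactivators differed with genotype or diet.

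The targeted gene Pctp was lower in every Pctp-/- library than in every WT library on the same diet, with 1.21 to 2.65 FPKM in WT and 0.330 to 0.566 FPKM in Pctp-/- mice on chow, and 3.61 to 7.90 against 0.156 to 0.329 FPKM on MCD (log2 difference -1.07, adjusted p = 0.150 on chow and -2.33, adjusted p = 6.24e-04 on MCD, limma). Log2 differences from limma are differences in log2(FPKM + 1). That scale understates changes of low genes, so these values are smaller in size than the folds of mean FPKM given beside them. Depth was 30486576 to 55179468 uniquely mapped reads per library. The chow and MCD libraries formed separate sets by sequencing quality, with 77.59 to 79.41% of reads uniquely mapped and a GC content of 49.83 to 51.24% on chow, and 85.66 to 87.55% mapped and a GC content of 48.42 to 49.16% on MCD, so that diet and sequencing set cannot be told apart. Differences between the diets also followed the GC content of the transcript. In WT mice the median difference in log2(FPKM + 1) between MCD and chow was 0.39 among tested genes in the lowest of 4 equal groups by GC content and -0.29 in the highest, and in Pctp-/- mice it was 0.33 and -0.42. Each diet difference of the 8 genes is therefore given also after a correction for transcript GC content, which was added after the data were seen. WT MCD replicates 1 and 2 contained skeletal muscle transcripts, with a summed FPKM of 68.4 and 66.3 over 6 muscle markers, against at most 1.24 in each of the other 10 libraries. Results for the 8 genes, their shares and the total numbers of genes called were therefore also computed without these 2 libraries. That leaves a single WT MCD library that is assumed to vary like the other groups. Gene lists and cell markers were not recomputed in this way.

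Within each library, levels per length of transcript covered a wide range across the 8 genes. Rxra was the highest in every group, with a mean of 123 ± 10.4 FPKM (SD, n = 3) in WT mice on chow, higher than 97.2% of all genes detected in that group. Ppara and Rxrb followed at 37.2 ± 8.22 and 30.6 ± 7.58 FPKM (SD, n = 3), and their ranges overlapped. The remaining 5 genes had means from 1.22 to 4.81 FPKM in the order Ppargc1b, Ppard, Pparg, Rxrg and Ppargc1a, of which Ppargc1b overlapped Ppard and Ppard overlapped Pparg. The order of the low genes differed on MCD, where Rxrg followed Rxrb at 5.50 ± 0.514 FPKM and Ppard came last at 1.48 ± 0.413 FPKM in WT mice (SD, n = 3).

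**Figure D1:**
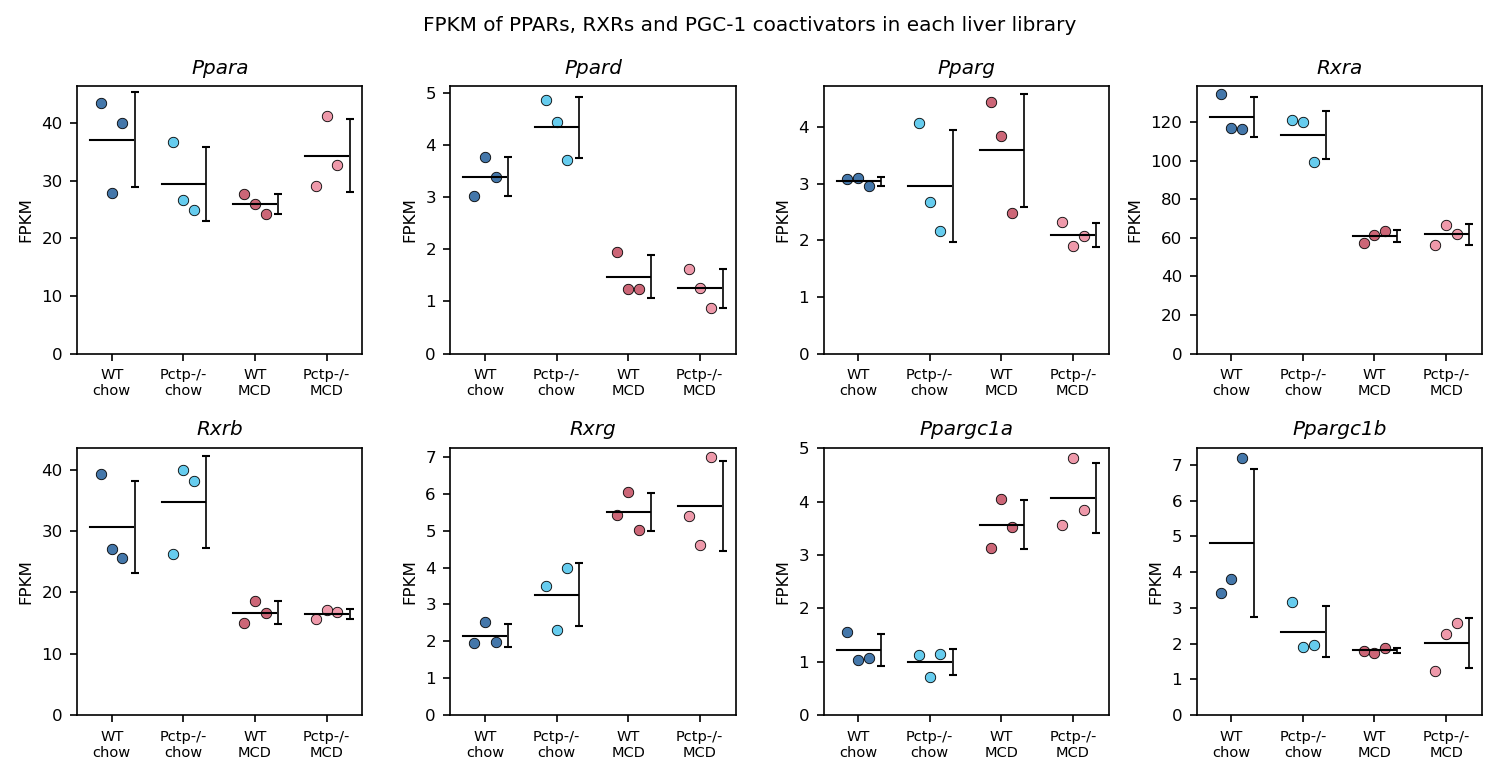
FPKM of the 8 genes (vertical axes, each starting at 0) in the 12 liver libraries, by group (horizontal axes), with points for single mice, horizontal lines for group means and bars for the SD of 3 mice. Rxra, Rxrb and Ppard lie lower in all MCD libraries than in all chow libraries of the same genotype, and Rxrg and Ppargc1a lie higher.

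On MCD, 7 of the 8 genes passed the test in WT mice and 5 of 8 in Pctp-/- mice (limma on log2(FPKM + 1), Benjamini-Hochberg adjusted p under 0.05 over 12466 genes). These counts stand against 57% of all tested genes in WT and 50.3% in Pctp-/- mice, so a change with diet was common among all genes. The diets did not overlap for the same 7 and 5 genes, as for 63.7% and 59.7% of tested genes. In both genotypes Ppard, Rxra and Rxrb were lower on MCD and Rxrg and Ppargc1a were higher. Ppara and Ppargc1b were lower on MCD in WT mice, and Pparg did not pass in either genotype. By direction, 5 of 8 were lower in WT (22.5% of all tested genes were) and 3 of 8 in Pctp-/- mice (24.4%), and 2 of 8 were higher in each (34.5% and 26%). The median of all tested genes moved by 0.11 on the log2 scale in WT mice, and by 0.01 after quantile normalization, so the changes are relative to that shift. Because whole livers were sequenced, fewer cells of a type and less RNA per cell cannot be told apart in any of these values.

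**Figure D2:**
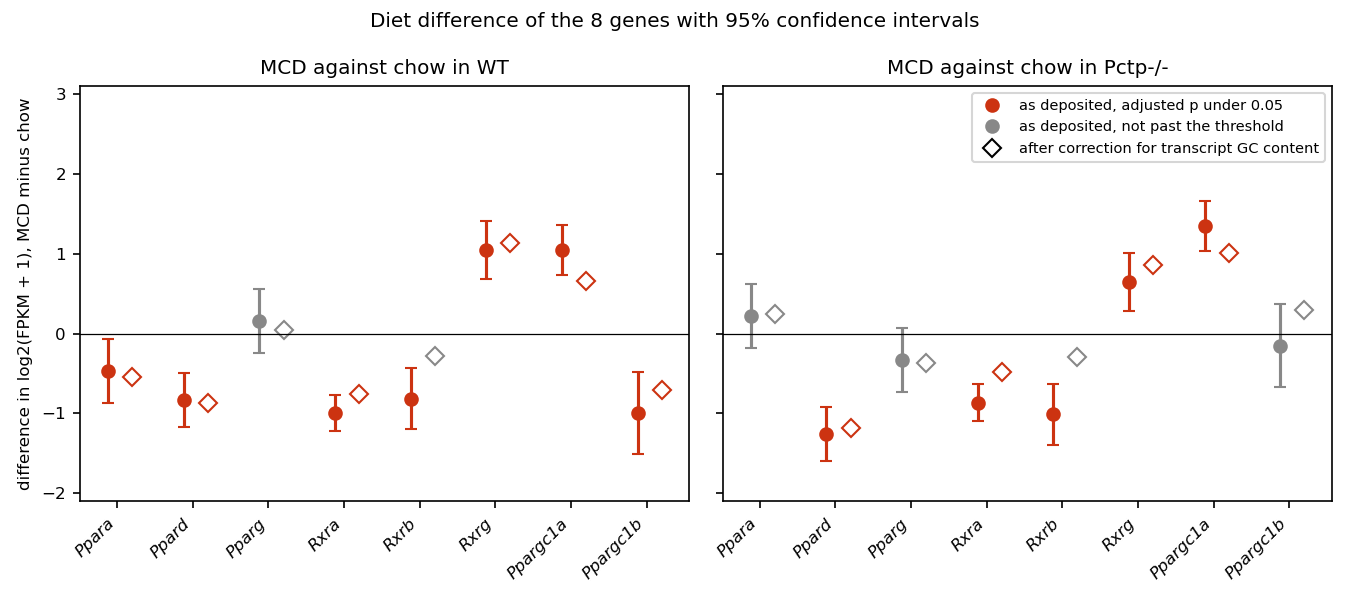
Difference in log2(FPKM + 1) between MCD and chow (vertical axis) for each gene (horizontal axis) in WT and in Pctp-/- mice, as circles with 95% confidence intervals from limma and as open diamonds after correction for transcript GC content, in red where the adjusted p was under 0.05 and in grey where it was not. Rxrb turns grey after the correction in both genotypes, while Ppard, Rxra, Rxrg and Ppargc1a stay red.

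Ppara (ENSMUSG00000022383, GRCm38 chromosome 15, 85734983 to 85802819, plus strand), which encodes the main PPAR of hepatocytes, was at 43.5, 27.9 and 40.1 FPKM in WT mice on chow and at 27.8, 26.0 and 24.3 FPKM on MCD. The Pctp-/- livers had 36.8, 26.6 and 24.9 FPKM on chow and 29.1, 41.4 and 32.8 FPKM on MCD. The lowest chow value of WT mice lay just above the highest MCD value, and in Pctp-/- mice the diets overlapped. Ppara was lower on MCD in WT mice by a log2 difference of -0.47 ± 0.18 (SE; adjusted p = 0.0432, limma). That call was lost with no filter on low values (adjusted p = 0.0817) and without any 1 of 7 libraries, namely WT chow replicate 1 (-0.35, adjusted p = 0.155) or 3, any WT MCD replicate, Pctp-/- chow replicate 2 or Pctp-/- MCD replicate 3, and without the 2 libraries with muscle transcripts (-0.57, adjusted p = 0.140). In Pctp-/- mice the difference was 0.22 ± 0.18 (SE; adjusted p = 0.336, limma). The GC correction gave -0.54 in WT (adjusted p = 0.0316) and 0.25 in Pctp-/- mice (adjusted p = 0.319, limma). The difference between the diet effects of the genotypes was 0.70 ± 0.26 (SE; unadjusted p = 0.0201, adjusted p = 0.235, limma), which did not pass.

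Ppard (ENSMUSG00000002250, chromosome 17, 28232700 to 28301474, plus strand), the PPAR on which the study centred, was at 3.03, 3.78 and 3.38 FPKM in WT mice on chow and at 1.96, 1.24 and 1.24 FPKM on MCD. Pctp-/- livers held 4.88, 4.46 and 3.72 FPKM on chow and 1.62, 1.26 and 0.876 FPKM on MCD. Every MCD library was below every chow library in both genotypes. The mean was 2.30-fold lower on MCD in WT mice (log2 difference -0.84 ± 0.15, SE; adjusted p = 6.5e-04, limma) and 3.47-fold lower in Pctp-/- mice (-1.26 ± 0.15, SE; adjusted p = 4.32e-05, limma). After correction for GC content these differences were -0.87 and -1.19 (adjusted p = 7.21e-04 and 1.15e-04, limma). Without the libraries with muscle transcripts the difference in WT mice was -0.97 (adjusted p = 0.00536, limma).

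Pparg (ENSMUSG00000000440, chromosome 6, 115360951 to 115490399, plus strand), the receptor of lipid storage, was at 3.08, 3.1 and 2.95 FPKM in WT mice on chow and at 4.44, 3.85 and 2.49 FPKM on MCD. In the Pctp-/- groups it was at 4.07, 2.67 and 2.16 FPKM on chow and at 2.32, 1.89 and 2.08 FPKM on MCD. The diets overlapped in both genotypes, and the 2 WT MCD libraries with muscle transcripts were the higher ones. The log2 difference of MCD against chow was 0.16 ± 0.18 (SE; adjusted p = 0.478, limma) in WT mice, and -0.21 (adjusted p = 0.489) without those 2 libraries. It was -0.33 ± 0.18 (SE; adjusted p = 0.151, limma) in Pctp-/- mice, and neither difference passed after the GC correction (0.05 and -0.36). A gene on the opposite strand, Gm44079, reaches an exon of Pparg, and whether the counting used strand was not given in the sources used here, so reads of the pair cannot be told apart.

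Rxra (ENSMUSG00000015846, chromosome 2, 27676440 to 27762957, plus strand), the main RXR of hepatocytes, was at 135, 117 and 117 FPKM in WT mice on chow and at 57.5, 61.7 and 63.6 FPKM on MCD. Among Pctp-/- mice it was at 121, 120.1 and 99.2 FPKM on chow and at 56.3, 66.8 and 62.1 FPKM on MCD. The chow and MCD libraries were far apart, and Rxra had the smallest spread within groups of the 8 genes, with a pooled SD of 0.12 on the log2 scale. Its mean was 2.01-fold lower on MCD in WT mice (-0.996 ± 0.10, SE; adjusted p = 9.63e-06, limma) and 1.84-fold lower in Pctp-/- mice (-0.86 ± 0.10, SE; adjusted p = 3.8e-05, limma). The GC content of its transcript, 57.0%, exceeds that of 87.6% of tested genes, and after correction the differences were -0.76 (adjusted p = 3.17e-04, limma) and -0.48 (adjusted p = 0.00794, limma).

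Rxrb (ENSMUSG00000039656, chromosome 17, 34031812 to 34038399, plus strand), the RXR found in nearly all tissues, was at 39.3, 27.1 and 25.5 FPKM in WT mice on chow and at 14.9, 18.6 and 16.6 FPKM on MCD. For Pctp-/- mice the values were 26.2, 40.0 and 38.1 FPKM on chow and 15.6, 17.1 and 16.8 FPKM on MCD. The diets did not overlap in either genotype, and on chow 1 library of each genotype stood away from the other 2. The log2 difference was -0.82 ± 0.18 (SE; adjusted p = 0.00182, limma) in WT and -1.01 ± 0.18 (SE; adjusted p = 5.27e-04, limma) in Pctp-/- mice. The transcript of Rxrb had a GC content of 61.4%, above that of 98.2% of tested genes. After the GC correction the differences were -0.29 in both genotypes and neither passed (adjusted p = 0.0783 in WT and 0.0861 in Pctp-/- mice, limma).

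Rxrg (ENSMUSG00000015843, chromosome 1, 167598384 to 167639623, plus strand), an RXR best known from skeletal muscle and brain, was at 1.95, 2.51 and 1.99 FPKM in WT mice on chow and at 5.42, 6.05 and 5.03 FPKM on MCD. Pctp-/- mice gave 3.49, 2.31 and 4.0 FPKM on chow and 5.40, 4.60 and 7.0 FPKM on MCD. Every MCD library was above every chow library. Its mean was 2.56-fold higher on MCD in WT mice (1.05 ± 0.17, SE; adjusted p = 2.29e-04, limma) and 1.73-fold higher in Pctp-/- mice (0.65 ± 0.17, SE; adjusted p = 0.00653, limma). After the GC correction the differences were 1.13 and 0.86, both past the threshold. The rise was present in the MCD libraries without muscle transcripts, and without the 2 libraries that held them the difference in WT mice was 0.94 (adjusted p = 0.0161, limma).

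Ppargc1a (ENSMUSG00000029167, chromosome 5, 51454250 to 51567726, minus strand), which encodes PGC-1α, a coactivator induced by fasting, was at 1.56, 1.03 and 1.08 FPKM in WT mice on chow and at 3.13, 4.04 and 3.53 FPKM on MCD. With PC-TP absent it was at 1.12, 0.708 and 1.14 FPKM on chow and at 3.56, 4.81 and 3.85 FPKM on MCD. No chow value came near an MCD value. The mean was 2.92-fold higher on MCD in WT mice (1.04 ± 0.14, SE; adjusted p = 7.65e-05, limma) and 4.11-fold higher in Pctp-/- mice (1.35 ± 0.14, SE; adjusted p = 1.47e-05, limma). Its transcript has a low GC content, 41.7%, and after correction the differences were 0.66 (adjusted p = 0.00203, limma) and 1.00 (adjusted p = 1.64e-04, limma). Ppargc1a is also a muscle gene, and without the 2 libraries with muscle transcripts the difference in WT mice was 1.04 (adjusted p = 0.00405, limma).

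Ppargc1b (ENSMUSG00000033871, chromosome 18, 61298136 to 61400431, minus strand), which encodes PGC-1β, a coactivator of lipogenic and mitochondrial genes in liver, was at 3.42, 3.82 and 7.19 FPKM in WT mice on chow and at 1.79, 1.75 and 1.88 FPKM on MCD. The knockout livers had 3.17, 1.90 and 1.95 FPKM on chow and 1.24, 2.26 and 2.56 FPKM on MCD. WT chow replicate 3 was the highest of all libraries (without it the difference in WT mice was -0.72, adjusted p = 0.0135, limma), and in Pctp-/- mice the diets overlapped. The log2 difference on MCD was -0.99 ± 0.24 (SE; adjusted p = 0.00353, limma) in WT mice, with an adjusted p of 0.0397 after the GC correction (-0.70) and 0.0659 without the libraries with muscle transcripts (-0.95). In Pctp-/- mice it was -0.15 ± 0.24 (SE; adjusted p = 0.619, limma) and 0.30 after the GC correction. The test of the difference between the diet effects gave 0.84 (unadjusted p = 0.0274, adjusted p = 0.261, limma), which did not pass. Ppargc1b had the largest spread within groups of the 8 genes, with a pooled SD of 0.34 on the log2 scale.

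**Figure D3:**
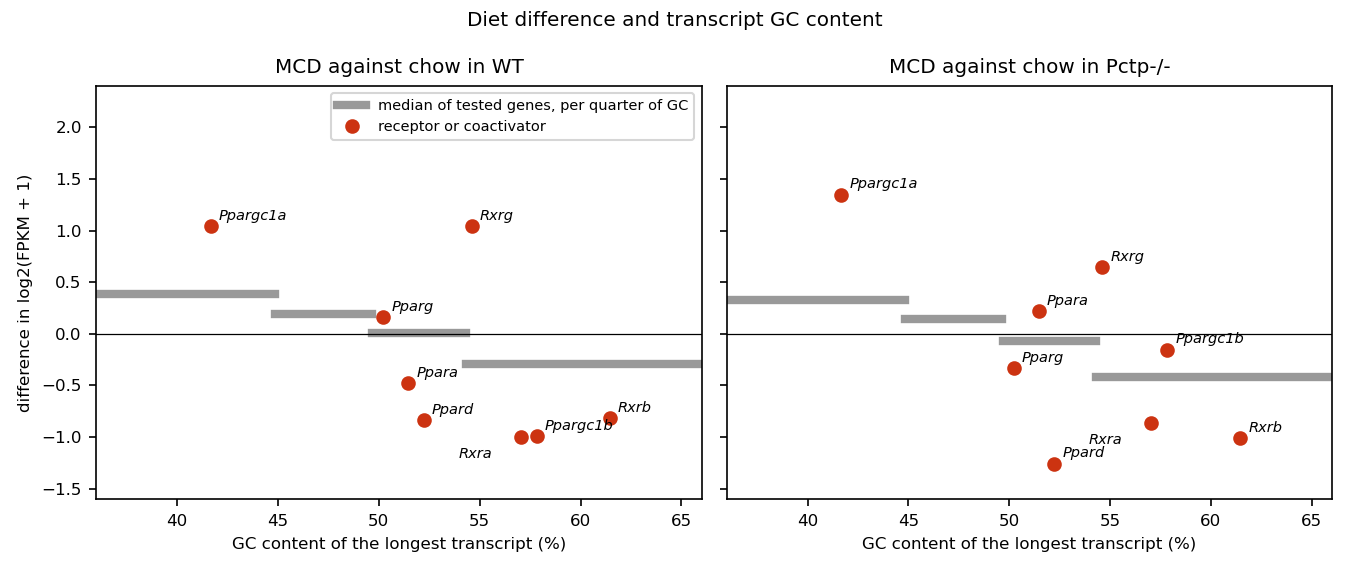
Difference in log2(FPKM + 1) between MCD and chow (vertical axis) against the GC content of the longest transcript (horizontal axis) in WT and in Pctp-/- mice, with red points for the 8 genes and grey bars for the median of the tested genes in each of 4 equal groups by GC content. The medians fall from 0.39 to -0.29 in WT and from 0.33 to -0.42 in Pctp-/- mice, and Rxrg lies above 0 although its GC content, 54.6%, is higher than that of 76.4% of tested genes.

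Each library also gives the composition of the receptor families, which does not depend on the scaling between libraries. Shares were compared by exact permutation of the diet labels within genotype over 400 arrangements, with a smallest p of 0.005 and adjustment over 16 tests. Ppard made up 8.09 ± 2.49% of the summed FPKM of the 3 PPARs in WT mice on chow and 4.72 ± 0.903% on MCD (SD, n = 3). In Pctp-/- mice it made up 11.98 ± 1.27% on chow and 3.40 ± 1.32% on MCD (SD, n = 3). The share of Ppard was lower on MCD by 5.98 percentage points averaged over the genotypes (exact permutation p = 0.005, the smallest possible, adjusted p = 0.02), and the MCD libraries were below the chow libraries in each genotype.

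Rxrg made up 1.40 ± 0.305% of the summed RXRs in WT and 2.19 ± 0.712% in Pctp-/- mice on chow, and 6.63 ± 0.626% and 6.78 ± 1.49% on MCD (SD, n = 3). The share rose by 4.91 percentage points (exact permutation p = 0.005, adjusted p = 0.02), and by 4.33 after the GC correction (exact permutation p = 0.005). Rxra remained the leading RXR in every group, with 70.2 to 80.9% of the sum in each library, and the diet difference of its share was -3.51 points (exact permutation p = 0.09, adjusted p = 0.24). After the GC correction that difference was -6.87 points (exact permutation p = 0.01). Ppara likewise led the PPARs with 78.9 to 92.9% of the sum in each library.

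In the deposited FPKM, the balance of the coactivators turned over. Ppargc1a made up 21.9 ± 9.19% of the summed PGC-1 coactivators in WT and 30.1 ± 5.99% in Pctp-/- mice on chow, and 66.2 ± 3.25% and 67.4 ± 7.11% on MCD (SD, n = 3). Ppargc1b was thus the more abundant coactivator in all chow libraries and Ppargc1a in all MCD libraries. Their transcripts have a GC content of 57.8% and 41.7%, and whether this order held after the GC correction was not tested. The difference was 40.8 percentage points (exact permutation p = 0.005, adjusted p = 0.02), and 24.0 points after the GC correction (exact permutation p = 0.005). The ratio of the summed PPARs to the summed RXRs was higher on MCD by 0.66 on the log2 scale (exact permutation p = 0.005, adjusted p = 0.02), but by 0.26 after the GC correction (exact permutation p = 0.085), where it no longer passed. No share passed for genotype (the lowest of 8 exact permutation p was 0.115, for Pparg).

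**Figure D4:**
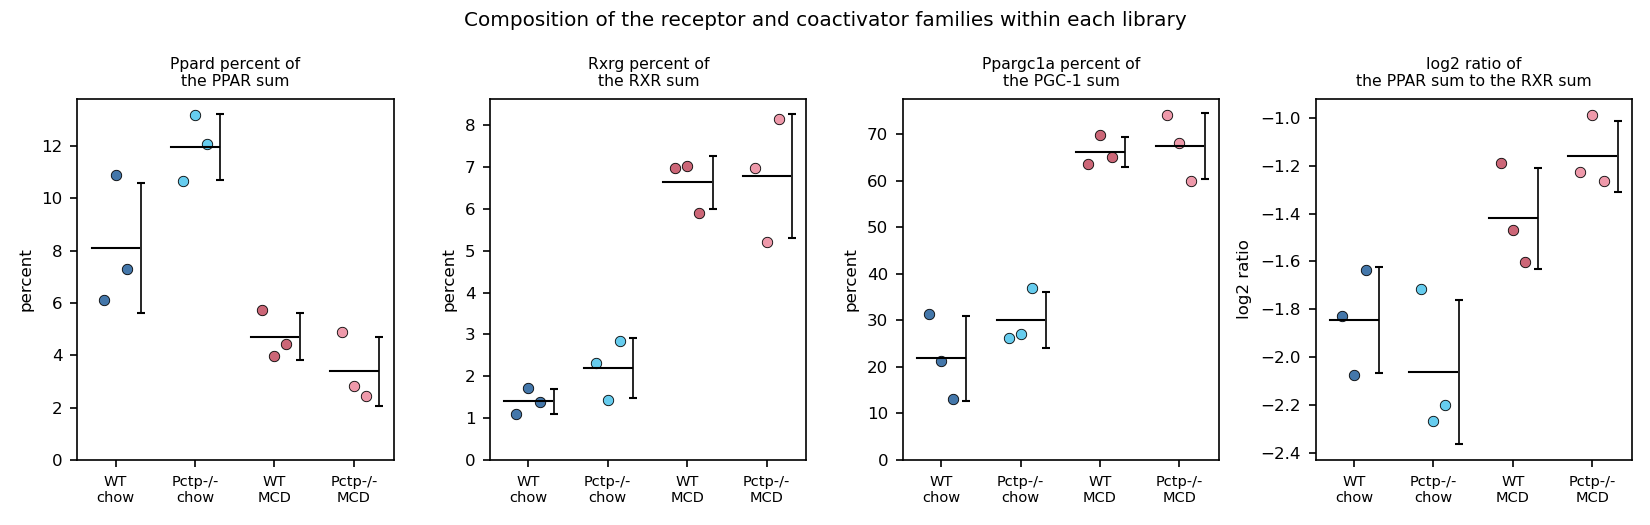
Share of Ppard in the summed FPKM of the PPARs, of Rxrg in that of the RXRs and of Ppargc1a in that of the PGC-1 coactivators (percent, axes from 0), and the log2 ratio of the PPAR sum to the RXR sum, by group, with points for mice, lines for means and bars for the SD of 3 mice. The share of Ppargc1a is 13.0 to 37.0% in the chow libraries and 60.0 to 74.2% in the MCD libraries.

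Knockout of Pctp was compared within each diet, where both genotypes lay in the same set by sequencing quality. The labels name no sequencing run. Of the 8 genes, 0 passed on chow and 0 on MCD (limma, Benjamini-Hochberg), where 0.136% and 0.818% of all tested genes did. At an unadjusted p under 0.05 there were 2 on chow and 1 on MCD, against 6.98% and 16.3% of tested genes. Averaged over both diets 0 of the 8 passed (0.144% of tested genes), and 1, Pparg, was below 0.05 before adjustment (8.7% of tested genes). The groups did not overlap for 1 of the 8 genes on chow (10.6% of tested genes) and 2 on MCD (26.6%). On chow this gene was Ppargc1b, which was lower in all 3 Pctp-/- mice, with a log2 difference of -0.76 ± 0.24 (SE; unadjusted p = 0.00727, adjusted p = 0.392, limma), and of -0.49 without WT chow replicate 3. On MCD they were Pparg, lower in all 3 Pctp-/- mice (-0.55 ± 0.18, SE; unadjusted p = 0.0113, adjusted p = 0.170, limma), and Ppara, higher in all 3 (0.38 ± 0.18, SE; unadjusted p = 0.0640, adjusted p = 0.338, limma). Without the libraries with muscle transcripts the difference of Pparg on MCD was -0.18 (adjusted p = 0.999, limma).

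The precision of the knockout comparison differed between the genes. On chow the 95% confidence interval of the log2 difference was -0.06 to 0.62 for Ppard and -0.34 to 0.11 for Rxra. The MCD groups gave -0.48 to 0.20 for Ppard and -0.21 to 0.24 for Rxra. Rxrg was higher in Pctp-/- mice on chow by 0.42 ± 0.17 (SE; unadjusted p = 0.0268, adjusted p = 0.625, limma), with overlapping groups, and by 0.02 ± 0.17 on MCD. The difference between the diet effects of the genotypes passed for 0 of the 8 genes (0.0963% of tested genes), and 2, Ppara and Ppargc1b, were below 0.05 before adjustment (15.1% of tested genes).

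The promoters of 4 genes that moved with diet in both genotypes are shown to set those that rose beside those that fell. The sequences are RefSeq windows of GRCm38.p6 that run 5′ to 3′ up to the first start site listed for the gene, with bases in an annotated exon left out, and capitals mark the GC box (GGGCGG on either strand). Ppargc1a (chr5:51567727-51567975, minus strand) and Rxrg (chr1:167598112-167598361, plus strand) rose, and Rxra (chr2:27676951-27677200, plus strand) and Ppard (chr17:28232504-28232699, plus strand) fell.
Ppargc1a: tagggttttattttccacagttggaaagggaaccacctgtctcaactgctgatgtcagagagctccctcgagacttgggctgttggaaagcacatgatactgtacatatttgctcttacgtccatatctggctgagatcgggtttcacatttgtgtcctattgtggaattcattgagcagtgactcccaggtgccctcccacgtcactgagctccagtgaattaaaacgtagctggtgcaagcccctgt
Rxrg: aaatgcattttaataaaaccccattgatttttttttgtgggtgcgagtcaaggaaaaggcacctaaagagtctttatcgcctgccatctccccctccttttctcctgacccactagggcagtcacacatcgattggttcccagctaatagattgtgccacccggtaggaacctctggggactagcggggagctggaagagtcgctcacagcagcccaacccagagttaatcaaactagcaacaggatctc
Rxra: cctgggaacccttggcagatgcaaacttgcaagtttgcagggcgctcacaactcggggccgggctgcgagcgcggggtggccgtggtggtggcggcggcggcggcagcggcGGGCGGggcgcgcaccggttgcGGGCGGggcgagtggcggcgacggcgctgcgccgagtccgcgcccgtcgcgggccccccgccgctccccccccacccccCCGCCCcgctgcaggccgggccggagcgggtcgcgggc
Ppard: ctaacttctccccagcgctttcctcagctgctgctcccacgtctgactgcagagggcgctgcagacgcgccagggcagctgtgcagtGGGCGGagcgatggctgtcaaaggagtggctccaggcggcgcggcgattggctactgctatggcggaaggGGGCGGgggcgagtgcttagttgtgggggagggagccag
The whole window of 250 bases held 0 GC boxes for Ppargc1a and 0 for Rxrg, and had a GC content of 48.0% and 49.2%. It held 3 GC boxes for Rxra at a GC content of 81.2%, and 3 for Ppard at 69.6%, 1 of them in the 54 exonic bases not printed. Of 32851 such windows, 32.7% held a GC box, and the median GC content was 52.4%. The first windows of Ppara and Rxrb, at 76.4% and 69.2% GC, held 2 GC boxes each. Pparg, which passed on MCD in neither genotype, had a first window with 1 GC box at 82.4% GC. Its other windows held 2 GC boxes at 63.6% GC and 0 at 40.8% GC. The second windows of Rxra and Rxrg, each at 55.2% GC, held 0 GC boxes. The start site of the printed Rxra window lies 761 bases inside the annotated gene. Ppara passed on MCD in WT mice only, so GC boxes were not limited to genes that fell in both genotypes. Windows were available for 7 of the 8 genes, 12 in all. The letters of a nuclear receptor half-site (AGGTCA on either strand) occur in 14.0% of all windows and in 4 of the 12, which are the first and second windows of Pparg and the second windows of Rxra (2 matches) and Rxrg, none of them printed. Those of 2 such half-sites in direct repeat with 1 base between them, the spacing used by PPAR and RXR pairs, occur in 0.0335% of all windows and in none of the 12. A match of letters is a description and does not show that a factor binds there.

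Genes with the most similar pattern over the 12 libraries were found by the root mean square difference of log2(FPKM + 1) after each gene was centred on its mean. The nearest to Ppara was Abca6 (0.10), to Ppard Zhx2 (0.13), to Pparg Mfsd6 (0.13) and to Rxra Tshz1 (0.084). The nearest to Rxrb was Dvl1 (0.088), to Rxrg Uqcc2 (0.16), to Ppargc1a Polr3gl (0.14) and to Ppargc1b Plekhg5 (0.22). The deviation of each of the 8 genes from its own mean was larger, from 0.28 for Ppara to 0.62 for Ppargc1a. The second nearest genes were Spred2, St3gal1, Epg5, Gm13456, Ctu1, Timm8b, Hadhb and Cry2 in the same order.

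Other receptors that pair with RXR were measured alongside, and values here and below are log2 differences of MCD against chow. Over all tested genes 57% passed in WT and 50.3% in Pctp-/- mice, and the counts of each list are to be read against these shares. WT values of the lists include the 2 MCD libraries with muscle transcripts and were not recomputed without them. Of 11 tested, 1 rose and 3 fell in WT mice (36.4% passed), and 2 rose and 3 fell in Pctp-/- mice (45.5%), with a median of -0.18 and -0.24 against 0.11 and 0.04 for all tested genes. Nr1h2, which encodes the oxysterol receptor LXRβ, fell in both (WT -0.90, Pctp-/- -1.36). The retinoic acid receptor gene Rara fell (-0.72 and -0.86) but did not pass after the GC correction (-0.34 and -0.31). Its relative Rarb rose (0.59 and 0.33), in Pctp-/- mice without a call after the correction (0.20). Nr4a1, an orphan receptor induced by many stimuli, fell in WT mice (-1.78). In Pctp-/- mice the bile acid receptor gene Nr1h4 rose (0.35) and the LXRα gene Nr1h3 fell (-0.33), neither with a call after the correction (0.20 and 0.04).

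Of 16 further coactivators and corepressors tested, 1 rose and 7 fell in WT mice, and 2 rose and 6 fell in Pctp-/- mice (50% passed in each). Lpin1, which encodes lipin 1, a phosphatidate phosphatase that also assists PGC-1α and PPARα, fell in WT (-1.95, adjusted p = 7.51e-04, limma) and in Pctp-/- mice (-1.10, adjusted p = 0.0258, limma). The acetyltransferase gene Crebbp fell in WT (-0.85) and the methyltransferase gene Carm1 in Pctp-/- mice (-0.92). The corepressor gene Nrip1 rose in WT mice (0.54), and the deacetylase gene Sirt1 and the corepressor gene Ncor1 rose in Pctp-/- mice (0.34 and 0.31). None of these 3 rises passed after the GC correction, which left 0 higher of the 16 in both genotypes.

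Among 10 tested partners and downstream regulators of PGC-1, 3 rose and 2 fell in WT mice, and 2 rose and 3 fell in Pctp-/- mice (50% passed in each). Hnf4a, the hepatocyte regulator through which PGC-1α acts on gluconeogenic genes, fell in WT (-1.10, adjusted p = 2.78e-06, limma) and in Pctp-/- mice (-0.87, adjusted p = 2.22e-05, limma). Foxo1, the insulin-regulated partner on the same genes, fell (-0.45 and -0.30), and the mitochondrial regulator gene Nrf1 fell in Pctp-/- mice (-0.39). The mitochondrial transcription genes Tfb1m (0.79 and 0.55) and Tfam (0.34 and 0.33) rose in both genotypes, and Gabpa rose in WT mice (0.27). After the GC correction, of these rises, only that of Tfb1m in WT mice passed (0.43).

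The 4 gluconeogenic genes listed as PGC-1 targets fell in both genotypes, while Ppargc1a itself was higher. G6pc, which encodes glucose-6-phosphatase, fell in WT (-2.90, adjusted p = 0.00461, limma) and in Pctp-/- mice (-3.32, adjusted p = 0.00244, limma). Pck1, which encodes the cytosolic phosphoenolpyruvate carboxykinase, fell (-1.50 and -1.47), as did Fbp1, which encodes fructose-1,6-bisphosphatase (-1.25 and -0.64). The fall was uneven in Pctp-/- mice, where Pck1 was at 272, 1037 and 329 FPKM on MCD. Replicate 2 of these lay within the chow range of 927 to 1578 FPKM. G6pc ranged from 15.8 to 248 FPKM in the same MCD group and from 448 to 661 FPKM on chow. After the GC correction 3 of the 4 passed in each genotype. The fall of 4 of 4 stands against 22.5% of all tested genes in WT and 24.4% in Pctp-/- mice.

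Of 15 tested genes that bind, import or activate fatty acids and retinoids, 7 rose and 6 fell in WT mice (86.7% passed), and 6 rose and 6 fell in Pctp-/- mice (80%). The binding protein genes Fabp7 (2.50 and 1.83) and Fabp2 (1.84 and 1.67) were among those that rose most. The transporter genes of hepatocytes Slc27a5 (-2.41 and -1.83) and Slc27a2 (-1.52 and -0.92) fell in both genotypes. The acyl-CoA synthetase gene Acsl1 was among those that fell most in WT (-0.96) and the transporter gene Slc27a1 in Pctp-/- mice (-0.96).

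Genes known as PPARα targets in liver moved in both directions. Of 44 tested, 13 rose and 15 fell on MCD in WT mice (63.6% passed), and 17 rose and 13 fell in Pctp-/- mice (68.2%), with a median of -0.08 and 0.06. The hormone gene Fgf21 (6.23 and 4.48) and the omega-hydroxylase gene Cyp4a14 (5.27 and 5.65) rose in both genotypes. Next came the pyruvate dehydrogenase kinase gene Pdk4 in WT (3.43) and the pantetheinase gene Vnn1 in Pctp-/- mice (3.51). The acyl-CoA thioesterase gene Acot1 (-2.90 and -3.05) and the peroxisomal thiolase gene Acaa1b (-1.84 and -2.16) fell in both. Cyp4a32 fell in WT mice (-2.15). The Cyp4a, Acot and Acaa1 genes have close relatives whose reads the counting could have split.

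Of 14 tested genes known as PPARδ targets, 6 rose and 3 fell in WT mice, and 7 rose and 2 fell in Pctp-/- mice. The share that passed, 64.3% in each genotype, was near the 57% and 50.3% of all tested genes. The lipase gene Lpl (3.52 and 2.84), Pdk4 (3.43 and 2.31) and the acyl-CoA synthetase gene Acsl3 (1.69 and 1.02) rose most. The catalase gene Cat (-1.23 and -1.09) and the fatty acid transporter gene Slc27a4 (-0.33 and -0.73) fell, the latter in WT mice without a call after the GC correction (-0.11). The transcription factor gene Klf10 fell in WT mice (-0.85). In Pctp-/- mice its mean was higher on MCD, at 14.2 FPKM (7.70 to 17.8) against 6.33 FPKM (5.35 to 8.27) on chow, with overlapping ranges.

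Of 14 tested PPARγ lipid storage genes, 9 rose and 3 fell in WT mice (85.7% passed), and 7 rose and 4 fell in Pctp-/- mice (78.6%), with a median of 1.05 and 0.52. Cd36, a fatty acid receptor of the cell surface (5.04 and 4.72), Lpl and the lipid droplet gene Cidec (2.91 and 2.07) rose most. In WT mice Acsl1 and the lipase genes Pnpla2 (-0.55) and Lipe (-0.49) fell. In Pctp-/- mice Pnpla2 (-0.58), the acyltransferase gene Mogat1 (-0.55) and the glycerol phosphate dehydrogenase gene Gpd1 (-0.51) fell most. The calls of Pnpla2 in both genotypes and of Gpd1 were lost after the GC correction. The PPAR lists share genes, so their counts are not independent.

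**Figure D5:**
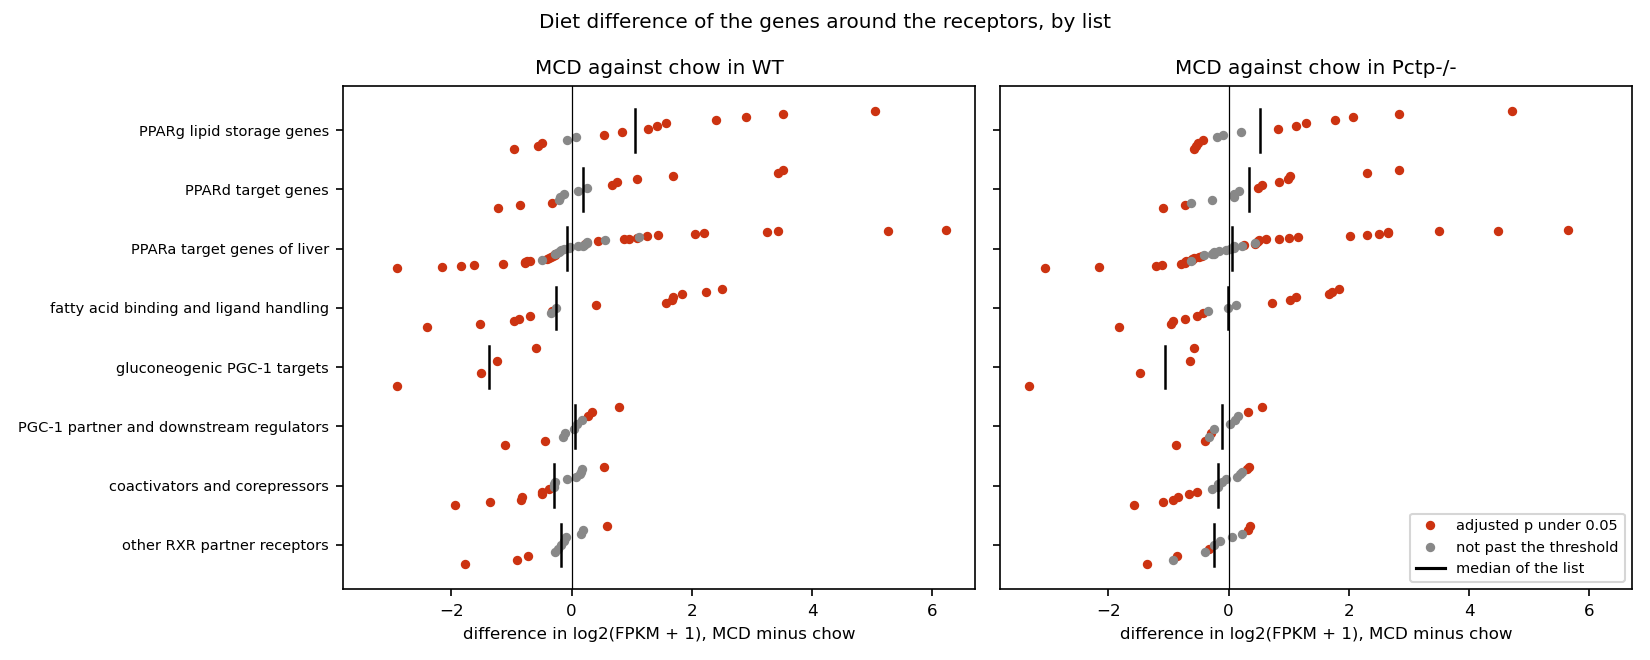
Difference in log2(FPKM + 1) between MCD and chow (horizontal axis) for each tested gene of 8 lists (rows) in WT and in Pctp-/- mice, with red points at an adjusted p under 0.05 (limma), grey points otherwise and black lines at the list medians. All 4 gluconeogenic genes lie below 0, and the PPARα targets run from -2.90 to 6.23 in WT mice.

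In the knockout comparisons on chow and on MCD, 0 genes of these 8 lists passed (limma). With a Wald test on its RNA sequencing of these livers, the study reported genes changed by knockout on both diets. It found many PPAR-regulated genes among them. Here limma on FPKM called 17 genes on chow and 102 on MCD, so the 0 belongs to a different test. Before adjustment, 6.98% of all tested genes were below 0.05 on chow and 16.3% on MCD. Of 44 PPARα targets 2 were on chow and 4 on MCD, of 14 PPARδ targets 3 and 2, of 14 PPARγ lipid storage genes 2 and 5, and of 15 genes that handle fatty acids and retinoids 2 and 7. The MCD counts include the 2 WT libraries with muscle transcripts and were not recomputed without them. All 5 tested skeletal muscle markers were also below 0.05 on MCD before adjustment (limma). The study measured Angptl4, Plin2 and Acadm by quantitative PCR in human Huh7 cells after knockdown of PC-TP, and reported that they increased. Angptl4 was also on its array of livers with hepatocyte-specific deletion from mice on a high-fat diet. Those cells, that diet and that deletion differ from the livers sequenced here. Here the knockout differences of Angptl4, Plin2 and Acadm were 0.36, -0.01 and 0.05 on chow and -0.14, -0.26 and 0.03 on MCD. None of these passed (lowest adjusted p = 0.475, limma). Plin2, which encodes a lipid droplet coat protein, rose on MCD (1.08 in WT and 0.83 in Pctp-/- mice), and Angptl4 and Acadm did not pass in either genotype.

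Counts of markers of other liver cells are to be read against all tested genes. Of these, 34.5% rose on MCD in WT and 26% in Pctp-/- mice. Of 10 macrophage markers, 9 rose on MCD in WT and 4 in Pctp-/- mice, and the highest summed FPKM of a chow library was 279 while the lowest of an MCD library was 370. These sums included Lyz2, at 12.2 to 32.9 FPKM on chow and 124 to 337 FPKM on MCD. In Pctp-/- mice the diets overlapped for Adgre1, Clec4f, Csf1r, C1qa, C1qb and Cd5l, and not for Lyz2, Cd68, Vsig4 and Trem2. Of 10 markers of stellate cells and fibroblasts, 5 rose in WT and 4 in Pctp-/- mice, with sums of at most 66.2 on chow and at least 153 on MCD. Of 7 tested markers of sinusoidal endothelium, 3 rose in WT and 0 in Pctp-/- mice. Of 5 tested cholangiocyte markers, 2 rose in WT mice, and in Pctp-/- mice 0 rose and 1 fell. Cd36 and Lpl are also expressed by macrophages. Of 8 adipocyte markers, Adipoq, Plin1, Retn and Lep were at most 0.138 FPKM and Cfd at most 0.284 FPKM in any library. The 3 that were tested passed in both genotypes, Fabp4 higher on MCD (1.57 in WT and 1.12 in Pctp-/- mice) and Pck1 and Adrb3 lower, and Pck1 is also a hepatocyte gene. The part of these cells in the diet differences of the receptors was not tested.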

How the data were processed

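RNA from 12 mouse livers was sequenced by a commercial provider. The authors deposited FPKM per gene and library, and the labels name the mouse build that corresponds to GRCm38. The aligner, the counting tool and the annotation are not given in the sources used here. The authors also deposited read counts per library and mapping measures in percent, which were used for depth only. Counts per gene were not used here, so limma 3.58.1 in R 4.3.3 was fitted to log2(FPKM + 1), a scale that understates changes of low genes, over 12466 genes averaging 0.5 FPKM or more, with 1 mean per group, a trend of variance on level and adjustment after Benjamini-Hochberg. Replicates are biological per the labels, and no pair of libraries held the same values. Symbols, positions and transcript GC content (longest transcript, 12401 tested genes) came from GENCODE M21 on GRCm38, and promoter windows from RefSeq. FPKM per gene does not separate isoforms. The GC correction subtracted, per library, a loess fit of the centred log2 values on GC content. Shares were tested two-sided by exact permutation with scipy 1.17.1 in Python 3.11.15, and figures were drawn with matplotlib 3.10.9.

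The 8 genes and the gene lists were chosen with earlier results of these data known. From each list, up to 3 genes that passed and rose most and 3 that fell most in each diet comparison, and every gene that passed in a knockout comparison, are named, with the 2 genes most similar to each receptor or coactivator and genes of the study's quantitative PCR. Some genes that this rule names are not reported here. On simulated data for knockout on chow with 12466 genes, 85% of 200 genes given a log2 change of 1 passed. Of the calls 4.49% were false, and 0 were called when none changed. The adjustment is more lenient when many genes change, and 17 passed in the data for knockout on chow. There Pctp did not pass at -1.07 (adjusted p = 0.150, limma), so the 85% does not carry over to that comparison. Alternatives were the pseudocount, the filter, scaling, trend, replicate block, libraries in the fit and each library left out, and, added later, the GC correction and leaving out 2 libraries with muscle transcripts. Correlations of same-numbered libraries ranged from -0.10 to 0.22 over 18 pairs. Precision is limited by 3 mice per group.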

Additional observations from a re-analysis of the deposited data

How the results depend on the processing

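The calls of Ppard, Rxra, Rxrg and Ppargc1a on MCD held in both genotypes under every alternative that kept the gene in the test, and those of Rxrb under all but the correction for GC content. With a mean FPKM of at least 5 only Ppara, Rxra and Rxrb remained in the test, so 3 of the 8 genes passed in WT and 2 in Pctp-/- mice, and 4448 and 4047 of all genes. The call of Ppara in WT mice was the least stable, with an adjusted p of 0.0817 without a filter. The number of genes called for knockout on chow, 17 in the report, was 10 without a filter, 11 with a mean FPKM of at least 5, 4 with only the 6 libraries compared, 9 without the 2 libraries with muscle transcripts and 8 to 34 with 1 replicate left out (34 without WT chow replicate 1, 8 without Pctp-/- chow replicate 2 or WT MCD replicate 2). For knockout on MCD, 102 genes became 19 with only the 6 libraries, 11 without the 2 libraries and 27 to 173 with 1 left out (27 without Pctp-/- MCD replicate 2, 173 without WT MCD replicate 3). Averaged over diets, 18 became 14 to 50 with 1 left out (50 without WT MCD replicate 3). For the difference of diet effects, 12 became 3 with a pseudocount of 0.1, 6 with median-of-ratios scaling, 7 without the trend, 5 with the GC correction, 1 without the 2 libraries and 0 to 60 with 1 left out (0 without Pctp-/- MCD replicate 2, 60 without WT chow replicate 1 or WT MCD replicate 3). For MCD in WT, 4663 genes were called without the 2 libraries.

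Whether same-numbered libraries were paired is not given in the labels, and these values do not settle it. Of 18 same-number pairs, 8 correlated above 0.1, and 3 of 12 libraries correlated best with their own number in every other group. With a replicate block, 32 genes passed for knockout on chow and 59 for the difference of diet effects, and Ppara on MCD in WT mice missed the threshold (adjusted p = 0.0506). No other call on the 8 genes changed with the block.

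Among differences that did not pass, signs turned as follows. Knockout on MCD for Rxrb was 0.094 after quantile normalization, 0.089 after median-of-ratios scaling and 0.11 after the GC correction, and ranged from -0.087 to 0.061 with 1 replicate left out. For Rxra it was -0.046 without the 2 libraries and -0.042 to 0.080 with 1 left out, for Rxrg -0.12 to 0.14 and for Ppargc1b -0.056 to 0.28. Knockout averaged over diets for Ppargc1a was 0.053, 0.041 and 0.032 under the same 3 settings and -0.056 to 0.049 with 1 left out. For Rxra it was 0.0089 after median-of-ratios scaling, and for Ppara -0.067 to 0.089 with 1 left out. Knockout on chow for Pparg ranged from -0.25 to 0.093. MCD in Pctp-/- mice for Ppargc1b was 0.30 after the GC correction and ranged from -0.285 to 0.051, and MCD in WT mice for Pparg was -0.21 without the 2 libraries.

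Of the shares, the diet difference of Rxra was -6.87 percentage points after the GC correction (exact permutation p = 0.01) and -4.67 to -2.15 with 1 replicate left out, that of Rxrb was 2.54 after the correction, and the log2 ratio of PPARs to RXRs was 0.26. The diet difference of Ppara ranged from 3.83 to 5.71 with 1 left out, and that of Pparg was -0.26 without the 2 libraries. The knockout difference of Ppara was -0.23 without the 2 libraries, that of Rxrg ranged from 0.127 to 0.865, and that of the log2 ratio from -0.064 to 0.080. The cause of these changes was not tested, beside the smaller number of genes or libraries in the settings that leave some out.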

Other observations

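The circadian clock genes, which include partners and targets of PGC-1α and PPARs, differed between the genotypes on chow. Of 19 tested, 3 passed in that comparison (limma, Benjamini-Hochberg), all lower in Pctp-/- mice, against 0.136% of all tested genes, and 0 passed on MCD. They were Dbp (-3.18, adjusted p = 0.0492, limma), Per3 (-1.86, adjusted p = 0.0478, limma) and Bhlhe41 (-1.69, adjusted p = 0.0453, limma). After the GC correction none of the 3 passed (adjusted p = 0.0581 for Dbp, 0.0607 for Per3 and 0.0581 for Bhlhe41, limma). Before adjustment 14 of the 19 were below 0.05 on chow (limma), against 6.98% of tested genes. The clock genes moved both ways, as Arntl, Npas2 and Nfil3 were higher in every Pctp-/- chow library than in every WT chow library. On MCD, 2 rose and 10 fell in WT mice and 2 rose and 4 fell in Pctp-/- mice. Dbp (-2.60), Per1 (-2.06) and Tef (-1.50) fell most in WT mice, and Arntl (1.01) and Npas2 (0.77) rose. In Pctp-/- mice Nfil3 (-2.18), Per1 (-1.51) and Cry1 (-0.84) fell most, of which Per1 did not pass after the correction (-0.95, adjusted p = 0.151, limma), and Per3 (1.36) and Nr1d2 (1.17) rose.

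Ppargc1b was the only one of the 8 genes whose chow groups did not overlap between genotypes, and one of the 2 genes most similar to it over the 12 libraries, Cry2, belongs to the clock list. The fasting times stated in the methods of the study are not tied to the mice sequenced here, and the part of the time of day in the values of Ppargc1b was not tested. The third PGC-1 relative, Pprc1, was at 4.48 ± 0.557 FPKM (SD, n = 3) in WT mice and 4.53 ± 1.27 FPKM in Pctp-/- mice on chow, and at 3.47 ± 0.638 and 2.77 ± 0.252 FPKM on MCD. It fell on MCD in Pctp-/- mice by 0.53 on the log2 scale (adjusted p = 0.0223, limma), a call lost after the GC correction (-0.23, adjusted p = 0.219, limma), and its difference in WT mice was -0.30 (adjusted p = 0.152, limma).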
